A study of Mus musculus with 70 samples.

Results

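The Kv1 family of voltage-gated potassium channels and its Kv beta subunits were followed in bulk RNA sequencing of mouse medulloblastomas of the Sonic hedgehog (SHH) type, tumours of the cerebellum. The 9 genes were taken by symbol: the pore-forming subunits Kcna1, Kcna2, Kcna3, Kcna4, Kcna5 and Kcna6, and the cytoplasmic subunits Kcnab1, Kcnab2 and Kcnab3. All 9 had a row in both count tables, of 53379 gene rows in the first and 37954 in the second. The first model carries Math1-Cre, which acts in granule neuron progenitors, and SmoM2, a constantly active Smoothened, the protein that passes on the Hedgehog signal. It held 3 tumours labelled Kcnb2 knockout (KO) and 7 labelled Kcnb2 wild-type (WT), all with Math1-Cre and SmoM2. The genotype label of the second model names ptch1, nestin_luc_sb100 with the SB100 transposase, and nestin_cre. It also names rosa26_lsl_pbert2, a piggyBac transposase that needs tamoxifen, and lazy_piggy, the transposon. In this model 29 tumours were labelled TAM+ (tamoxifen) and 30 were labelled TAM-, and both groups carry the same label for every allele. One more Lazy Piggy tumour had no treatment label and entered no comparison. The age of the mice was not given in the sources used here.

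Kv1 subunits assemble as tetramers in the membrane, open at low voltages and limit how readily an axon fires. Kv beta subunits bind the cytoplasmic side, speed inactivation or help the channel reach the surface. In the mature cerebellum Kv1 channels are known from the axons of granule neurons, from basket cell terminals around Purkinje cells, and from the zones of myelinated axons next to the nodes of Ranvier.

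The promoters of 3 members are shown because Kcna6 was the member called between tamoxifen groups, Kcna4 joined it without the count filter, and Kcna2 differed most in level between the models. The windows run from 250 bases before to 50 bases after the RefSeq start on build GRCm38.p6, 5′ to 3′ on the gene's strand. Capitals mark matches to CAGATG or CAGCTG, the E-box forms bound by neuronal basic helix-loop-helix factors, on either strand.
Kcna2, chr3:107101317-107101616, plus strand: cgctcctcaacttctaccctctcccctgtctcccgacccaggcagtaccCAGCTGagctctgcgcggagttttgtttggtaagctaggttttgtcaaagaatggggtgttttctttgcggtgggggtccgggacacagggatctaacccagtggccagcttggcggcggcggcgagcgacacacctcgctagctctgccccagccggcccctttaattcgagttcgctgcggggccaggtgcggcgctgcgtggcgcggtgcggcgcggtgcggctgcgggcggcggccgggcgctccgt
Kcna4, chr2:107290339-107290638, plus strand: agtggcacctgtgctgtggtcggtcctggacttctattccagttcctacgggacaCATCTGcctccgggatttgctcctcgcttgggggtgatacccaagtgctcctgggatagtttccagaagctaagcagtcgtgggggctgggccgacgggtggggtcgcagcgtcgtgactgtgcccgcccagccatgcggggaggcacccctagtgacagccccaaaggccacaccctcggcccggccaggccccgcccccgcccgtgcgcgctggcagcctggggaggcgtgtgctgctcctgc
Kcna6, chr6:126740625-126740924, minus strand: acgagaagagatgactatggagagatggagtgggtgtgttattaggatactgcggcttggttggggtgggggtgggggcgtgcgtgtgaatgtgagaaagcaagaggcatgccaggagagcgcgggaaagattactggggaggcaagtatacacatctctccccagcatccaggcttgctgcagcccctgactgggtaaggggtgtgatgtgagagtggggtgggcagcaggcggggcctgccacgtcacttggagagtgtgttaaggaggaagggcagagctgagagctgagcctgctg
Kcna2 held 1 CAGCTG and Kcna4 held 1 CAGATG, read on the minus strand as CATCTG. Kcna6 held neither. CAGATG was present in 17.2% and CAGCTG in 16.3% of the 32851 promoters of the same length, and the 2 motifs do not overlap in these windows. The GLI motif GACCACCCA, searched on both strands, was in none of the 3 and in 0.253% of all promoters. The windows differed in CpG dinucleotides, with 31 in Kcna2, 20 in Kcna4 and 8 in Kcna6, against a median of 7 over all promoters. Of the 9 genes, 7 matched the promoter table.

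The levels of the 9 genes spanned over an order of magnitude within each group. Levels of different genes are given as counts-per-million (CPM) divided by kilobases of exon. In the KO tumours the medians were 14.0 for Kcna2, 10.6 for Kcnab2 and 9.35 for Kcna1, then 4.10 for Kcnab1, 4.09 for Kcnab3 and 3.41 for Kcna6. Kcna3, Kcna4 and Kcna5 had 0.656, 0.338 and 0.166. In the WT tumours Kcnab2 came first with 5.53, then Kcna2 with 4.68 and Kcna1 with 3.72. Kcna6, Kcnab1, Kcnab3 and Kcna3 followed with 1.73, 1.35, 1.15 and 0.979, and Kcna4 and Kcna5 had 0.186 and 0.158. Among the KO tumours the ranges of neighbours in this order overlapped except between Kcna1 and Kcnab1 and between Kcna6 and Kcna3, and among the WT tumours all neighbours overlapped.

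In the TAM+ tumours the order began with Kcna1 at 7.18 CPM per kilobase, Kcnab2 at 6.40, Kcna6 at 1.85 and Kcnab1 at 1.55. Kcnab3 and Kcna2 had 1.52 and 0.615, and Kcna3, Kcna5 and Kcna4 had 0.266, 0.216 and 0.164. The TAM- tumours began with Kcnab2 at 5.66 and Kcna1 at 3.35, then Kcnab3 at 1.23, Kcnab1 at 1.14, Kcna6 at 0.845 and Kcna2 at 0.349. There Kcna3, Kcna5 and Kcna4 had 0.325, 0.131 and 0.0533. All neighbours in both orders overlapped in their ranges over tumours. So Kcnab2, which helps Kv1 channels reach the membrane, and Kcna1 were in the upper 3 in all 4 groups, and Kcna3, Kcna4 and Kcna5 were the lower 3. The remaining Kv1 genes, Kcna7 and Kcna10, had at most 3 counts in any tumour. Exon lengths came from GENCODE M21, and the authors' exon models were not given in the sources used here, so the order between genes rests on those lengths.

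**Figure D1:**
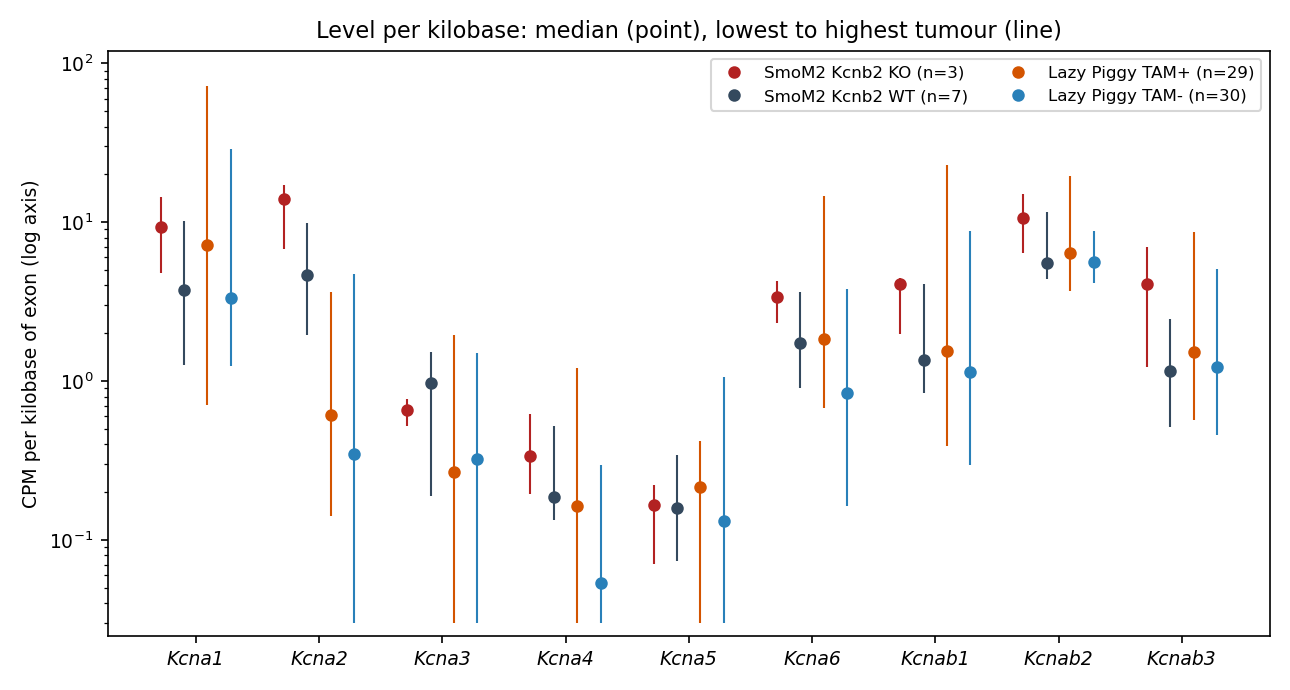
Level of each gene in CPM per kilobase of exon (log axis) in the 4 groups, with the median as a point and the lowest to highest tumour as a line. Lines that reach the bottom edge at 0.03 include a tumour at or under that level. Kcna2 sits at 14.0 and 4.68 in the KO and WT SmoM2 tumours, above 0.615 and 0.349 in the TAM+ and TAM- tumours.

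Kcna2, the delayed rectifier subunit that joins Kcna1 in cerebellar axons, had the largest gap between the models. Its median was 55.7 CPM in the SmoM2 WT tumours and 4.16 CPM in the TAM- tumours, a difference of 3.74 on the log2 scale. Of 13154 genes with medians of at least 1 CPM in both, 99.9% had a smaller difference in that direction, and the median over all was 0.04. Of the other 5 members at that level, Kcna6 differed by 1.03, and Kcna1, Kcnab1, Kcnab2 and Kcnab3 by 0.15, 0.24, -0.03 and -0.09. The 3 members with a median under 1 CPM in a group, Kcna4, Kcna3 and Kcna5, differed by 1.81, 1.59 and 0.27. The tables hold different sets of rows and were made apart, so these are descriptions with no test. A difference in the exon models counted for Kcna2 was not tested. Nor was one in how reads shared by Kcna6 and its antisense gene Gm26673 were counted.

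The knockout comparison asks how tumours labelled Kcnb2 KO differ from those labelled WT. Kcnb2, which encodes another voltage-gated potassium channel subunit, had 11.1, 13.7 and 10.0 CPM in the KO tumours. The WT tumours had 42.0, 40.0, 8.44, 47.0, 39.1, 27.6 and 22.5 CPM. The third of these, the library labelled wild-type replicate 3, had the lowest Kcnb2 of all 10, and its title carries the ending of the KO titles. Its column in the count table carries the ending of the other numbered WT titles, and its genotype label says wild-type. It is counted here as that label says. All 3 KO titles start with a number, as do those of WT replicates 1 to 3, and the fit held this form of the title constant. Each KO estimate of that fit therefore sets the 3 KO tumours against WT replicates 1 to 3. The remaining WT tumours enter through the spread, the filter and the scaling. The median log2 fold change of the members was 1.26 with all tumours, and also without WT replicate 4, 5, 6 or 7. WT ranges printed beside the estimates cover all WT tumours.

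No Kv1 or Kv beta gene passed edgeR's quasi-likelihood test between KO and WT tumours, as no gene of the 19864 tested did (0%). At an unadjusted p under 0.05, 890 genes were higher (4.48%) and 793 were lower (3.99%), and 6 of the 9 members were among the higher ones. These counts moved with single libraries. Without KO replicate 1 they were 280 higher and 203 lower genes, and without WT replicate 2 they were 323 and 282, with no member among them in either fit. Without the library labelled wild-type replicate 3 there were 606 and 392, with 3 members higher, and with it counted as a KO there were 437 and 226, with 2. Leaving out KO replicate 2 gave 387 and 254, with 3 members, and leaving out WT replicate 1 gave 1659 and 1551, with 2. Leaving out KO replicate 3 gave 1450 and 1500, with 6 members, and leaving out WT replicate 4 gave 1497 and 1032, with 7. Without the title form in the fit 1822 genes were higher and 2183 lower, with 3 members higher. DESeq2 called 8 genes at its adjusted p and none of them was a member. The median log2 fold change of the 9 was 1.26, beside 0.00 over all genes tested, and 7 of 9 were positive, as were 50.2% of all genes. Without the title form the median of the 9 was 0.76.

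Kcna1, the subunit mutated in human episodic ataxia, had 44.7, 68.7 and 23.0 CPM in the KO tumours. In the WT tumours it had 6.02 CPM at the lowest, 17.8 at the median and 48.6 at the highest. All 3 KO tumours lay above the WT median, and WT replicate 4 lay among them. The log2 fold change was 1.36 ± 0.73 (SE), with an adjusted p of 0.569 in edgeR.

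Kcna2 had 205, 167 and 81.0 CPM in the KO tumours, against 23.1, 55.7 and 118 CPM at the lowest, median and highest of the WT tumours. KO replicates 1 and 2 exceeded every WT tumour. Its log2 fold change was 1.44 ± 0.54 (SE; adjusted p = 0.566 in edgeR).

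Kcna6, a neuronal Kv1 subunit, had 25.2, 20.3 and 13.7 CPM in the KO tumours, against 5.36, 10.3 and 21.5 in the WT tumours. One KO tumour exceeded every WT tumour, and the change was 1.28 ± 0.45 on the log2 scale (SE; adjusted p = 0.566 in edgeR). Without the title form it was 0.76. An antisense gene, Gm26673, covers 39.6% of the Kcna6 exon length. Its own row had a median of 0.0853 CPM in the SmoM2 table, and without stated strand the reads of this pair cannot be told apart.

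Kcna4, which gives a fast inactivating current, had 3.01, 1.63 and 0.939 CPM in the KO tumours and 0.648, 0.901 and 2.51 at the lowest, median and highest of the WT tumours. The groups overlapped, with WT replicate 7 above 2 of the KO tumours, and the change was 1.25 ± 0.51 (adjusted p = 0.566 in edgeR). It was 0.74 ± 0.51 without KO replicate 1 and 0.73 without the title form. Kcna3, a channel of T cells and microglia, had 1.46, 1.25 and 0.990 CPM in the KO tumours and 0.359, 1.86 and 2.91 in the WT tumours. Kcna5, best known from heart and vessel muscle, had 0.639, 0.475 and 0.203 CPM in the KO tumours and 0.210, 0.453 and 0.988 in the WT tumours. Both lay inside the WT range apart from the lowest Kcna5 value, with log2 fold changes of -0.17 ± 0.70 for Kcna3 and -0.16 ± 0.62 for Kcna5 (adjusted p = 0.942 and 0.934 in edgeR). The 7 T cell markers summed to 0.609 to 0.920 CPM in the KO tumours and 0.606 to 2.47 CPM in the WT tumours.

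Of the Kv beta genes, Kcnab1, whose product adds fast inactivation, had 35.2, 38.5 and 16.9 CPM in the KO tumours. The WT tumours had 7.21, 11.6 and 35.3 CPM at the lowest, median and highest. Its log2 fold change was 1.26 ± 0.55 (SE; adjusted p = 0.566 in edgeR). Kcnab2 had 83.5, 58.9 and 35.7 CPM in the KO tumours, against 24.6, 30.8 and 65.0 CPM in the WT tumours, a change of 0.96 ± 0.39. Kcnab3 had 20.0, 11.7 and 3.53 CPM in the KO tumours, against 1.47, 3.30 and 7.07 CPM in the WT tumours. Its change was 1.76 ± 0.67 (adjusted p = 0.566 for both in edgeR), and 1.15 ± 0.69 without KO replicate 1. Kcnab3 had the largest estimate of the 9 as reported, but Kcna1 did without KO replicate 1 (1.38), and Kcna2 did with the library labelled wild-type replicate 3 counted as a KO (1.47). All 3 KO tumours lay above the WT median for each Kv beta gene, and the lowest KO tumour, replicate 3, lay within the WT range.

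**Figure D2:**
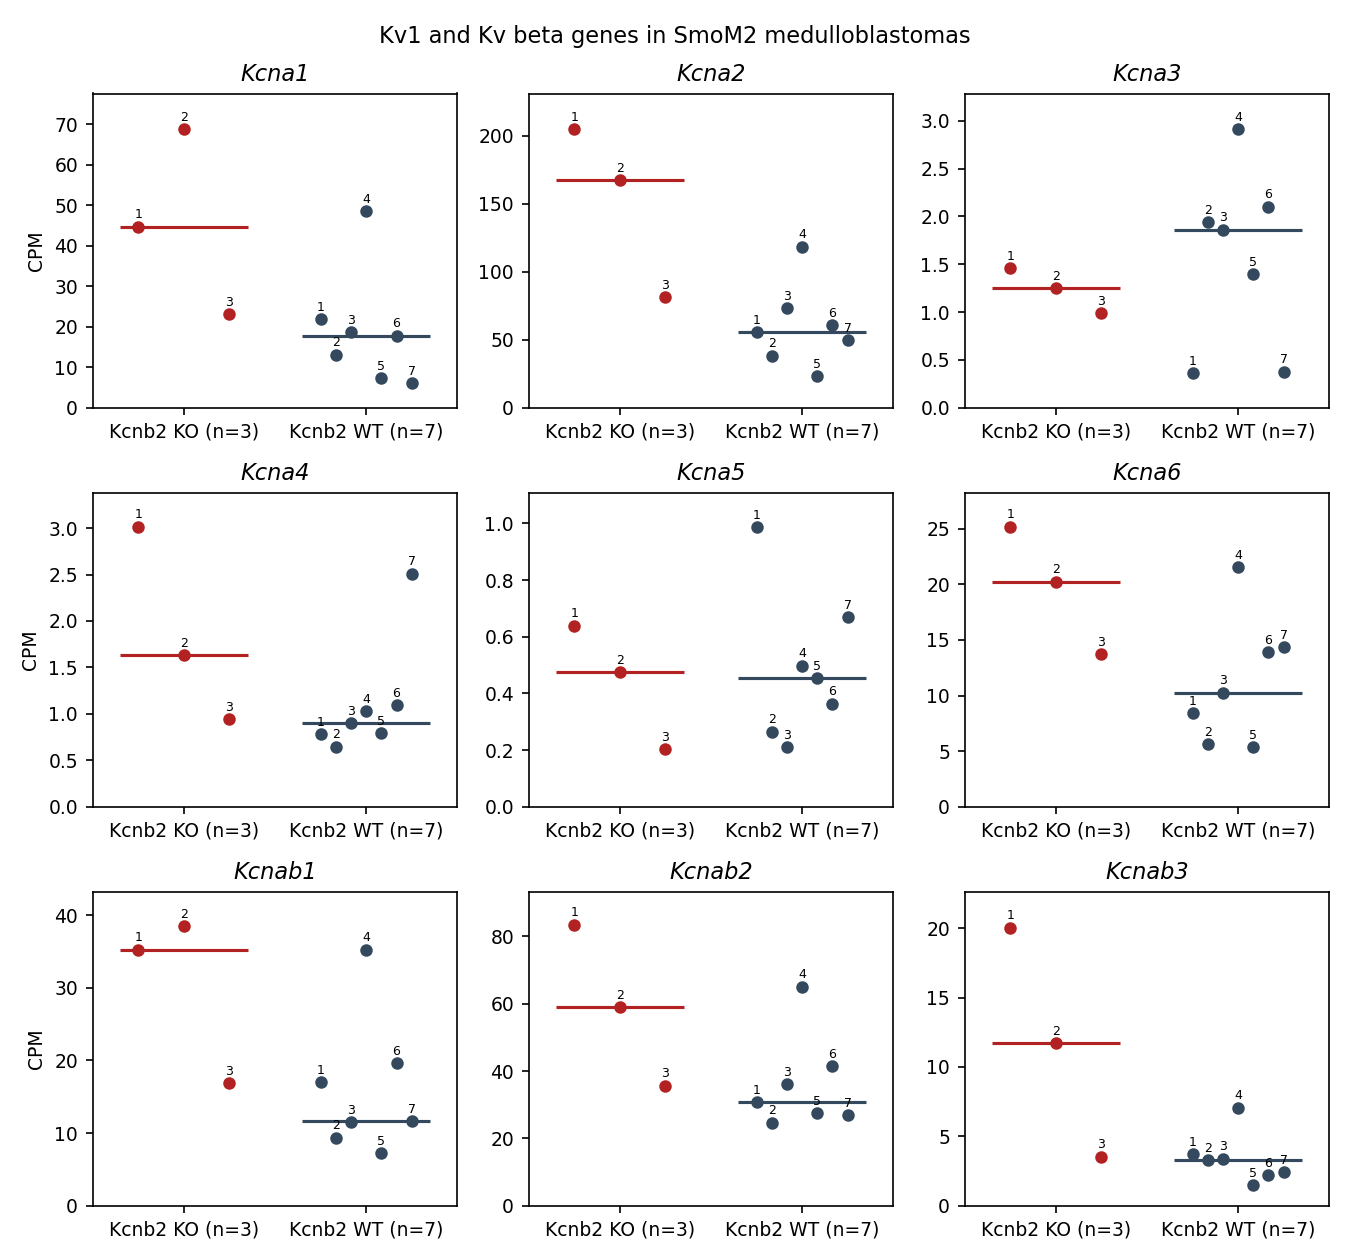
CPM of each gene in the 3 KO and 7 WT SmoM2 tumours, with a point per tumour, its replicate number above it and a line at the group median. KO replicate 3 is the lowest KO tumour in all 9 panels, and WT replicate 4 is the highest WT tumour in 7 of them.

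Among tumours whose titles start with a number, 3 KO and 3 WT, every KO tumour exceeded every WT tumour for 4 of the 9 members, where 8.02% of all genes tested did so. For no member was every KO tumour the lower, as for 7.4% of all genes. These were Kcna1 (23.0 to 68.7 CPM in KO, 13.1 to 21.9 in WT), Kcna2 (81.0 to 205 and 38.2 to 73.0), Kcna4 (0.939 to 3.01 and 0.648 to 0.901) and Kcna6 (13.7 to 25.2 and 5.65 to 10.3). Kcnab1, Kcnab2 and Kcnab3 overlapped by 1 or more tumours. This grouping was made after the values were seen, and 3 tumours against 3 cannot reach a two-sided exact permutation p below 0.10. It holds the same tumours that set each KO estimate in the fit with the title form, so it adds no separate support.

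Markers of mature neurons and myelin were read in the same tumours, and their sums overlapped between the KO tumours and all WT tumours. The 8 mature granule neuron markers summed to 612 to 1612 CPM in the KO tumours and 83.7 to 939 CPM in the WT tumours. For the 10 oligodendrocyte markers the sums were 963 to 4900 CPM in KO and 159 to 3200 CPM in WT, and for the 7 Purkinje markers 778 to 1466 and 74.6 to 1377. The 7 inhibitory interneuron markers summed to 207 to 414 CPM in KO and 51.3 to 375 in WT. Against WT replicates 1 to 3 alone, the granule neuron and Purkinje sums did not overlap with KO, as for 4 of the members. Those WT sums were 124 to 583 CPM for granule neuron and 170 to 577 for Purkinje markers. The oligodendrocyte and interneuron sums overlapped there too, with 391 to 1873 and 100 to 209 CPM in WT replicates 1 to 3. Every marker of these 4 lists had a positive estimate, none was called, and none had a median of 0. The 12 cell cycle genes summed to 1850 to 2987 CPM in KO and 2324 to 3514 in WT, with no positive estimate. WT replicate 4, the highest WT tumour for 7 members, was also the highest WT tumour for all 4 neuron and myelin lists. In bulk tumour RNA, more cells of a type and more RNA per cell cannot be told apart.

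With a list's score, its mean log2 CPM, added to the fit, the estimates of Kcna1, Kcna2, Kcna6 and the Kv beta genes were smaller. Kcna4 had the largest estimate of the 9 with either score. At an unadjusted p under 0.05 in edgeR, 1 member was higher with the granule neuron score, as were 1.4% of all genes. With the oligodendrocyte score 2 members were, as were 1.49% of all genes. Kcna1 had 0.33 ± 0.47 with the granule neuron score and 0.34 ± 0.53 with the oligodendrocyte score. For Kcna2 the values were 0.60 ± 0.27 and 0.54 ± 0.19, and for Kcna6 0.60 ± 0.23 and 0.61 ± 0.23 (SE). The median of the 9 members was 0.50 and 0.43, and none passed edgeR's test in either fit. These fits were added after the data had been seen. By their Y-linked genes all 3 KO tumours were female, as were 4 of 7 WT tumours. With sex in the fit Kcna1 had 1.69 ± 0.71, Kcna2 1.53 ± 0.58 and Kcna6 1.30 ± 0.49.

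**Figure D3:**
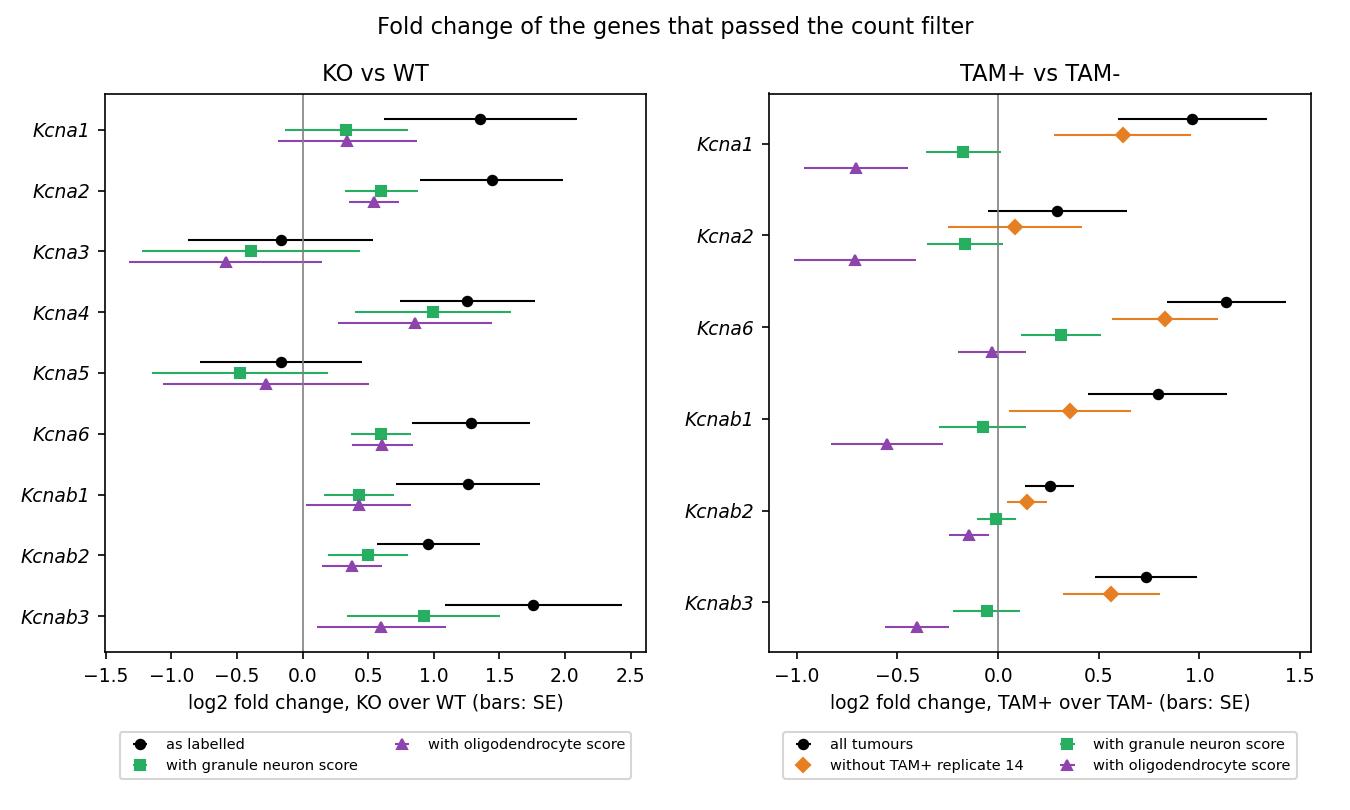
Log2 fold change with its SE for each gene tested, KO over WT (left) and TAM+ over TAM- (right), under the fit as reported and with other settings named in the legend. Kcna6 lies at 1.28 and 1.13 as reported, and at 0.61 and -0.03 with the oligodendrocyte score in the fit.

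The tamoxifen comparison sets tumours from mice labelled TAM+ against TAM-, in a model where tamoxifen allows the piggyBac transposase to act. Of the 9 members, 6 passed the count filter. Kcna6 rose in TAM+ tumours, and the other 5 did not pass edgeR's test: 1 of 6 was called higher, where 3.06% of the 13735 genes tested were. At an unadjusted p under 0.05, 5 of the 6 were higher, as were 11.6% of all genes, and none was lower, as were 7.91%. The median log2 fold change of the 6 was 0.76, and Kcna2 was the member without such a p.

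Kcna6 had 4.04 CPM at the lowest, 11.0 at the median and 86.4 at the highest TAM+ tumour, against 0.976, 5.03 and 22.6 CPM in the TAM- tumours. The groups overlapped, 25 of 29 TAM+ tumours lay above the TAM- median, and 5 lay above every TAM- tumour. Its log2 fold change was 1.13 ± 0.30 (SE), with an adjusted p of 0.0237 in edgeR. The antisense gene Gm26673 had no row in the Lazy Piggy table, and its part in the Kcna6 counts there was not tested. Without TAM+ replicate 14, the tumour with 86.4 CPM, the change was 0.83 ± 0.26 and the adjusted p 0.0932, so the call was lost. In each of the other 58 fits that leave out a tumour it passed, with estimates up to 1.25. Within earlier-dated titles (17 TAM+, 10 TAM-) Kcna6 changed by 1.15 ± 0.38 and within later-dated titles (12 TAM+, 20 TAM-) by 1.22 ± 0.45, and it passed in neither (adjusted p = 0.227 and 0.224 in edgeR). The difference between the periods was 0.07 ± 0.62 (adjusted p = 0.999 in edgeR). Of 7 members tested for that difference none was called, as none of 14450 genes was (0%). None had an unadjusted p under 0.05, as 2.27% of all genes did with a higher and 2.89% with a lower change in the later period.

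Kcna1 had 3.40, 34.3 and 345 CPM at the lowest, median and highest TAM+ tumour and 5.98, 16.0 and 138 CPM in the TAM- tumours. The ranges overlapped, with 21 of 29 TAM+ tumours above the TAM- median and 2 above the highest TAM- tumour. The change was 0.97 ± 0.37 (adjusted p = 0.128 in edgeR). Without TAM+ replicate 14 it was 0.62 ± 0.34, and without TAM- replicate 11 it was 1.17 and passed (adjusted p = 0.0405 in edgeR).

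Kcna2 had 1.68, 7.32 and 43.1 CPM in the TAM+ tumours and 0.341, 4.16 and 56.0 CPM in the TAM- tumours. The highest of all 59 was TAM- replicate 16, and the change was 0.29 ± 0.35 (adjusted p = 0.669 in edgeR). Without TAM- replicate 16 it was 0.63 ± 0.32, and without TAM+ replicate 14 it was 0.08 ± 0.33, neither of which passed. It was 1.03 within earlier-dated and 0.27 within later-dated titles, and passed in neither. TAM- replicate 16 stood apart in the make-up of its Kv1 counts. It had 114 CPM of Kcna1, 56.0 of Kcna2 and 65.0 of Kcnab1, but 3.56 of Kcna6, below the TAM- median. In the same tumour the mature granule neuron markers summed to 2737 CPM, the highest of the TAM- group, while the oligodendrocyte markers summed to 163 CPM, below the group's median of 177, and the Purkinje markers to 45.2 CPM, below the median of 99.7.

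Among the Kv beta genes, Kcnab1 had 3.36, 13.4 and 196 CPM in the TAM+ tumours and 2.56, 9.82 and 76.2 CPM in the TAM- tumours. Its change was 0.79 ± 0.35 (adjusted p = 0.192 in edgeR), and 0.36 ± 0.30 without TAM+ replicate 14. Kcnab2 had 20.7, 35.7 and 109 CPM in the TAM+ tumours and 23.1, 31.5 and 48.8 CPM in the TAM- tumours, the narrowest ratio of highest to lowest among the 6 tested. It changed by 0.26 ± 0.12 (adjusted p = 0.231 in edgeR), and by 0.14 without TAM+ replicate 14. Kcnab3 had 1.63, 4.37 and 24.9 CPM in the TAM+ tumours and 1.31, 3.52 and 14.6 CPM in the TAM- tumours. Its change was 0.73 ± 0.25 (adjusted p = 0.0872 in edgeR), and it passed in 1 of 59 fits with a tumour left out, without TAM- replicate 3 (adjusted p = 0.0293). For each Kv beta gene 20 to 22 of the 29 TAM+ tumours lay above the TAM- median, and TAM+ replicate 14 was the highest of all 59.

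The 3 scarce members stood near the counting floor. Kcna4 had 0, 0.795 and 5.87 CPM at the lowest, median and highest TAM+ tumour and 0, 0.257 and 1.44 CPM in the TAM- tumours. Medians of 6 and 2 counts lay behind these, and it had no count in 1 TAM+ and 9 TAM- tumours. A count of 0 allows up to 3 counts, or 0.346 to 0.511 CPM at these depths. Without the count filter Kcna4 was called higher in TAM+ tumours, at 1.42 ± 0.40 (adjusted p = 0.0439 in edgeR), with 22 of 29 TAM+ tumours above the TAM- median. That fit called 492 of 26349 genes higher. Kcna3 had 0, 0.506 and 3.70 CPM in TAM+ and 0, 0.618 and 2.86 CPM in TAM- tumours, and Kcna5 had 0, 0.618 and 1.20 CPM in TAM+ and 0, 0.376 and 3.04 CPM in TAM- tumours. In the unfiltered fit these changed by -0.02 ± 0.40 and 0.27 ± 0.34, and neither passed (adjusted p = 0.999 and 0.706 in edgeR). The T cell markers summed to 0.393 to 4.32 CPM in TAM+ and 0.115 to 9.03 CPM in TAM- tumours, and 4 of these 7 markers had a median of 0 in each group.

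**Figure D4:**
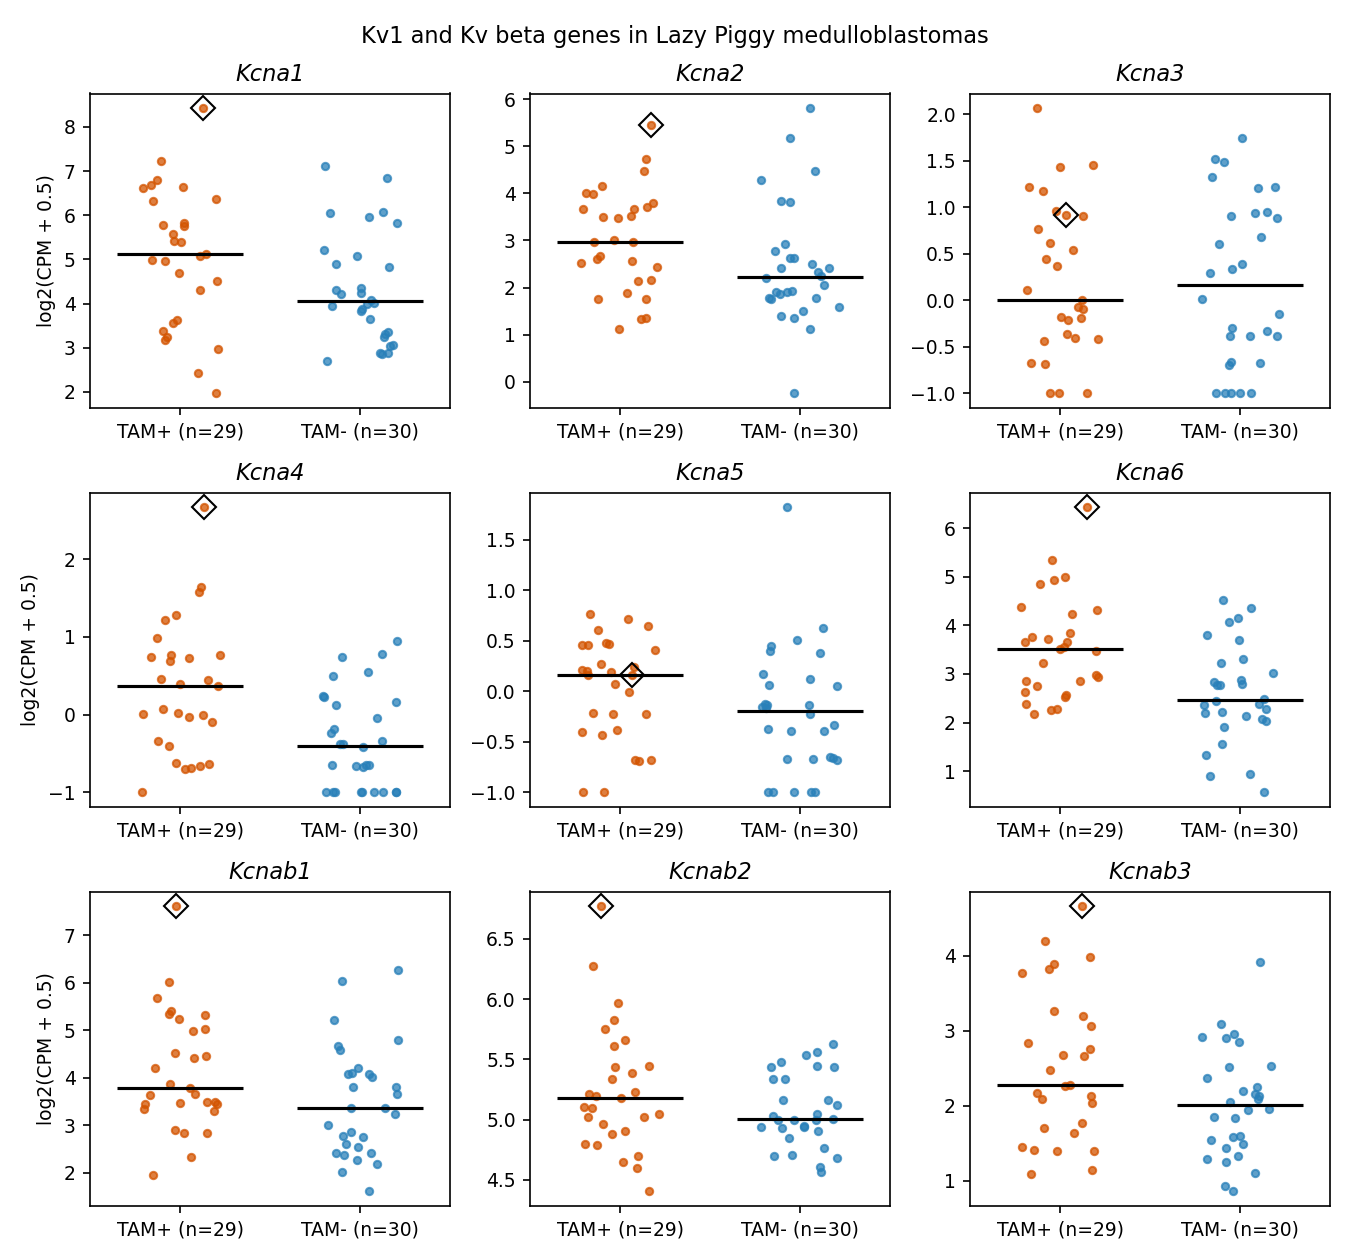
Log2 of CPM plus 0.5 for each gene in 29 TAM+ and 30 TAM- tumours, with a point per tumour and a line at the group median. The open diamond marks TAM+ replicate 14, the highest TAM+ tumour for Kcna1, Kcna2, Kcna4, Kcna6 and the 3 Kv beta genes. Kcna6 has medians of 11.0 and 5.03 CPM.

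Markers of neurons and myelin differed between the tamoxifen groups as well. Over all genes tested, 3.06% were called higher. The 10 oligodendrocyte markers summed to 112 to 3703 CPM in TAM+ tumours and 116 to 772 CPM in TAM- tumours, and 9 of 10 were called higher. The 7 Purkinje markers summed to 77.2 to 7170 CPM in TAM+ and 33.1 to 1524 CPM in TAM- tumours, and all 7 were called higher. Of 6 interneuron markers tested 4 were called higher, with sums of 14.8 to 1841 CPM for the list in TAM+ and 17.5 to 354 CPM in TAM- tumours. None of the 8 mature granule neuron markers was called, with sums of 44.8 to 5363 CPM in TAM+ and 41.1 to 2737 CPM in TAM- tumours. No marker of these 4 lists had a median of 0 in either group. TAM+ replicate 14 was the highest TAM+ tumour for all 4 lists and had the lowest cell cycle sum, 855 CPM, of the TAM+ group.

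With the oligodendrocyte score in the fit, Kcna6 changed by -0.03 ± 0.17 and Kcna1 by -0.70 ± 0.26, and no member had a positive estimate. With the mature granule neuron score, a fit added after the data had been seen, Kcna6 changed by 0.31 ± 0.20 and the other 5 lay between -0.17 and -0.01. None passed edgeR's test in either fit, in which 6 and 21 genes were called over all, against 501 without a score.

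Within each tamoxifen group, the Kv1 and Kv beta genes varied with the neuron and oligodendrocyte scores from tumour to tumour. Over 29 TAM+ tumours Kcna1 and the mature granule neuron score had a Pearson r of 0.951 and a Spearman rho of 0.970, and over 30 TAM- tumours r was 0.826 and rho 0.648. Permutation tests gave adjusted p of 2.27e-05 for r in both groups, from 1e-05, the smallest that 100000 permutations can give. Without the 2 tumours farthest from the median score, r was 0.944 in TAM+ and 0.740 in TAM-. Kcna2 and the same score had r = 0.827 in TAM+ and 0.838 in TAM- tumours. Kcna6 and that score had r = 0.861 in TAM+ and 0.607 in TAM- tumours. With the Purkinje, interneuron and oligodendrocyte scores Kcna1 had r of 0.941, 0.939 and 0.938 in TAM+ tumours. In TAM- tumours these were 0.630, 0.696 and 0.693.

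Kcna6 followed the oligodendrocyte score with r = 0.904 and rho = 0.903 in TAM+ tumours, and with r = 0.777 and rho = 0.733 in TAM- tumours (adjusted permutation p = 2.27e-05 for r in both). Within earlier-dated and later-dated titles r was 0.920 and 0.946 in TAM+ tumours, and 0.693 and 0.815 in TAM- tumours. Kcna6 had a similar r with the Purkinje score, 0.907 in TAM+ and 0.764 in TAM- tumours, and with the interneuron score, 0.893 and 0.746. Kcnab3, a beta subunit of neurons, had r = 0.947 with the oligodendrocyte score in TAM+ and 0.680 in TAM- tumours. With the Purkinje score its r was 0.931 and 0.692, and with the interneuron score 0.931 and 0.712. Kcnab2 had r = 0.758 with the oligodendrocyte score in TAM+ and 0.437 in TAM- tumours, the lowest r of the 6 with that score in each group. In TAM- tumours its rho was 0.303, and Kcnab1 had r = 0.493 and rho = 0.289. Neither rho passed (adjusted permutation p = 0.125 for Kcnab2 and 0.142 for Kcnab1).

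The cell cycle score ran the other way, with r = -0.733 for Kcna1 in TAM+ and -0.756 in TAM- tumours. For Kcnab2 the relation in TAM+ tumours, r = -0.656 with rho = -0.307 (permutation p = 0.00112 and 0.106), rested on the 2 farthest tumours, without which r was -0.149. Among TAM- tumours, the cell cycle relations of Kcna2 and Kcnab2 had r of 0.0971 and 0.0357 within the 10 earlier-dated titles. Within the 20 later-dated ones they had -0.760 and -0.427. The microglia score had an adjusted p under 0.05 for 1 of the 12 relations, with Kcna6 in TAM- tumours (r = 0.549, rho = 0.527). In all, 102 relations were computed, 72 with scores and 30 between members, and 89 had an adjusted p under 0.05 for r and 78 for rho. Of these 89, 12 no longer passed without the 2 farthest tumours, all but the Kcnab2 relation above in TAM- tumours. Of the 11 that passed for r and not for rho, 10 were in TAM- tumours. Kcnab1 passed for rho there only with the mature granule neuron score among the 6 scores. Its cell cycle r of -0.432 in TAM- tumours was -0.0636 without the 2 farthest. The tumours share their dissection and normalization with the scores, and no cause was tested. How many of all genes would pass with the same scores was not computed, so these counts do not set the members apart.

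**Figure D5:**
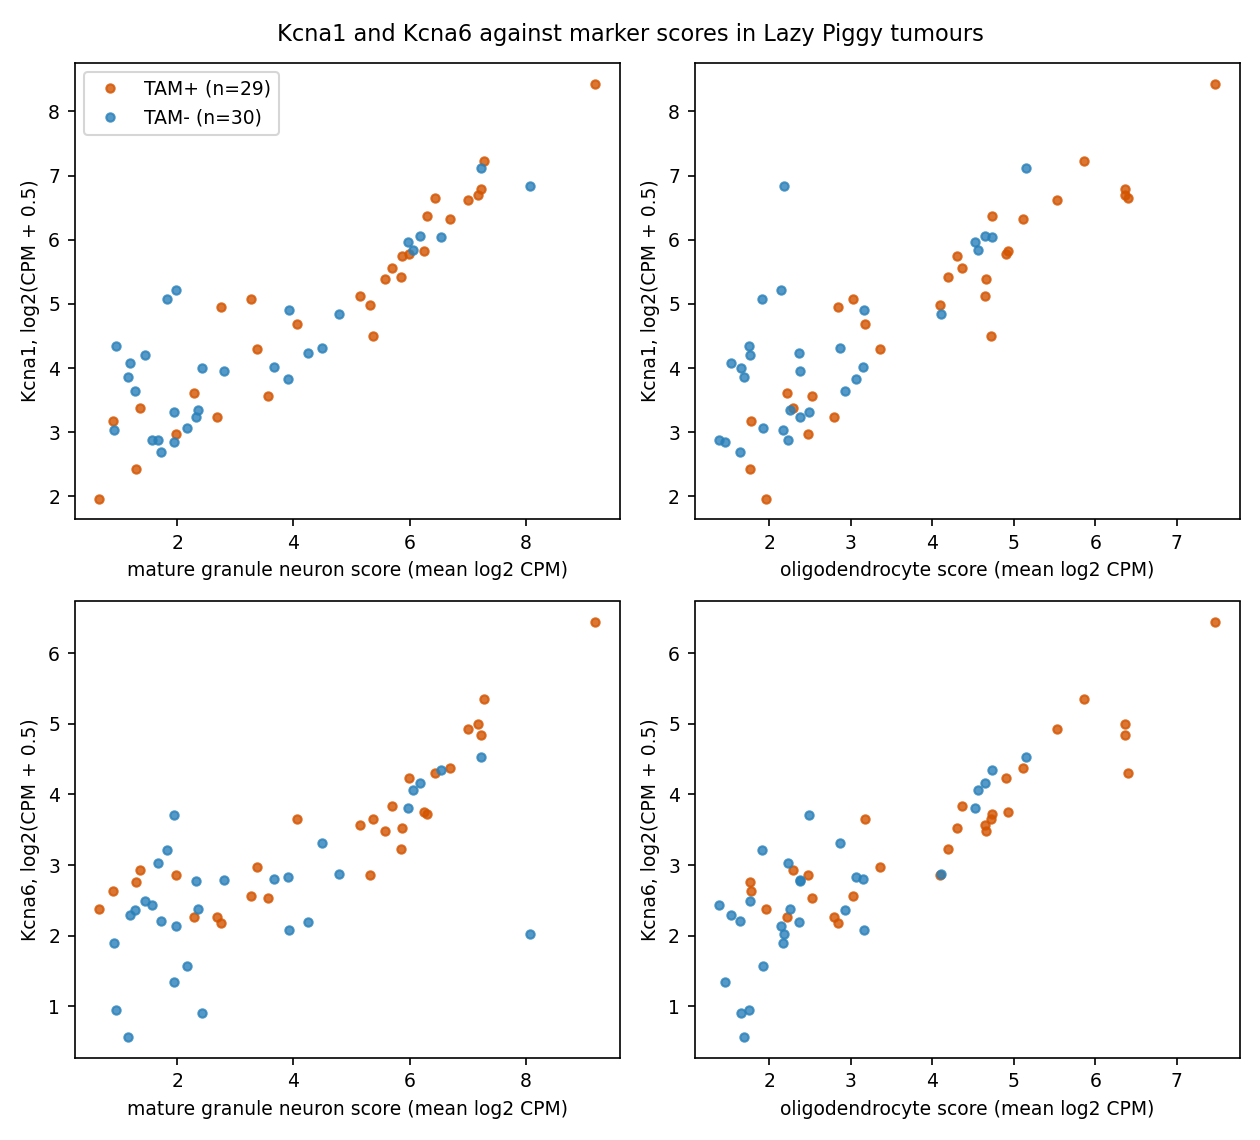
Kcna1 (top) and Kcna6 (bottom) as log2 of CPM plus 0.5 against the mature granule neuron score (left) and the oligodendrocyte score (right), with a point per tumour in 29 TAM+ and 30 TAM- tumours. Kcna1 tracks the granule neuron score with r of 0.951 and 0.826. The TAM- tumour at the far right of the left panels, replicate 16, is high in Kcna1 and low in Kcna6.

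Between members, all 15 pairs had an adjusted p under 0.05 for r in TAM+ tumours and 13 of 15 in TAM- tumours. Of these 13, 2 did not pass for rho, and 3 did not pass for r without the 2 farthest tumours. In TAM+ tumours the highest was Kcna1 with Kcnab3 (r = 0.928, rho = 0.935), and the lowest Kcna2 with Kcnab2 (r = 0.669). In TAM- tumours the highest was Kcna1 with Kcna2 (r = 0.811, rho = 0.682). The 2 pairs that did not pass there were Kcna6 with Kcnab1 (r = 0.352) and Kcnab1 with Kcnab2 (r = 0.280). The share of pairs of other genes that would pass was not computed, so these counts do not set the members apart.

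The genes whose levels were most like each member over all 59 tumours were sought among 12255 genes. Kcna1 was most like Jph3 (r = 0.949), Syt7 (0.943) and Cacnb4 (0.941). Kcna2 was most like Adcy1 (0.907), Sorl1 (0.898) and Rgl3 (0.894). Kcna6 was most like Dpp10 (0.924), Ppp1r16b (0.912) and Megf11 (0.908). For Kcnab1 they were Garnl3 (0.883) and Tspan9 (0.857), for Kcnab2 Dnajc27 (0.846), Nsf (0.815) and Dlg1 (0.812), and for Kcnab3 Rcan2 (0.906), Dnm3 (0.900) and Clstn3 (0.899). Dlg1 is also a scaffold that binds the tail of Kv1 subunits. Within groups, Kcnab2 and Dlg1 had r = 0.878 in TAM+ and 0.565 in TAM- tumours. The r values over 59 tumours pool both groups, and all are descriptions with no test.

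A list of 16 genes whose products anchor or accompany Kv1 channels on the axon was read from the same fits. It holds the Caspr2 gene Cntnap2, its partner Cntn2, the LGI ligands and their ADAM receptors, the Dlg scaffolds, and the axonal skeleton genes Ank3, Sptbn4, Sptan1 and Epb41l3. Between KO and WT tumours none of the 16 was called (0% of all genes), 15 were positive (50.2% of all genes) and 7 had an unadjusted p under 0.05, all higher (4.48% of all genes). That count was 2 without the library labelled wild-type replicate 3, and ran from 0, without KO replicate 2, to 11, without KO replicate 3, with a tumour left out. The 2 with the smallest p were the scaffold gene Dlg4 at 0.82 ± 0.28 and the spectrin gene Sptbn4 at 1.35 ± 0.48 (adjusted p = 0.566 for both in edgeR). Between TAM+ and TAM- tumours 1 of 16 was called higher and none lower, where 3.65% of all genes tested were called in either direction, and 12 were positive (45.9% of all genes). The one called was Lgi4, a secreted ligand known from glia of peripheral nerve, at 1.19 ± 0.24 (SE; adjusted p = 0.00561 in edgeR), and 0.38 ± 0.15 with the oligodendrocyte score (adjusted p = 0.360). Adam11, whose product clusters Kv1 channels at basket cell terminals, changed by 0.85 ± 0.36 between KO and WT tumours and by 0.53 ± 0.21 between TAM+ and TAM- tumours (adjusted p = 0.566 and 0.141 in edgeR).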

How the data were processed

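Per the labels' protocols, polyadenylated RNA was taken with the RNeasy kit for TruSeq RNA libraries. The submitters' processing notes name STAR 2.5.4b and the build mm9, without a role. How reads were counted, with which strand setting and gene models, was not given in the sources used here. Raw read counts per gene, whole numbers without normalization, were deposited by the authors in 1 table for each model. Totals per library were 32838448 to 39387125 for KO, 23923453 to 33959857 for WT, 6256214 to 8470896 for TAM+ and 5869618 to 8667344 for TAM- tumours. From the Lazy Piggy table, the 10 rows of the transposon construct, with 0.00120% of its reads, were left out.

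Symbols, exon lengths and overlaps came from GENCODE M21 (GRCm38), which named 53274 of 53379 and 32882 of 37954 gene rows. Genes were tested with edgeR 4.0.16 in R 4.3.3 (quasi-likelihood test, TMM, filterByExpr with a smallest count of 10), with Benjamini-Hochberg adjustment over all genes tested and a threshold of 0.05. KO against WT was fitted with the form of the title, TAM+ against TAM- without covariates. The SE is the log2 fold change over the root of F. Scores and correlations used log2 CPM with a prior count of 2, and two-sided permutation tests adjusted over all 102 relations. CPM printed per tumour is the count over the library's total. Fits were run on simulated counts drawn separately for each gene. These held no shared differences in tissue content between tumours, so the run says nothing of how the fits handle those. Alternatives were other covariates, RLE scaling, no count filter, DESeq2 1.42.0, title periods, shared title dates and leaving out each tumour. A title was called later when dated from August 2016, and a tumour male above 10 CPM of Y-linked genes. The floors cover counting error only, while the SE also takes in the spread between libraries.

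Groups came from the genotype and treatment labels, and nothing says that tumours came from separate mice, so p-values measure the spread between libraries. The members, gene lists and tests were chosen with earlier results of these data known. The genes named are all 9 members, the 3 genes most alike to each tested member (mean log2 CPM of at least 1; 1 of them is not reported here), and of the Kv1 partner list those called or else the 2 with the smallest p; Adam11 was named after its values were seen. Promoters are from RefSeq on GRCm38.p6.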

Additional observations from a re-analysis of the deposited data

Results flagged for a closer look

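The Lazy Piggy tumour without a treatment label had more of every member than any of the 59 labelled tumours. It had 387 CPM of Kcna1, 77.8 of Kcna2, 6.49 of Kcna3, 42.0 of Kcna4, 9.40 of Kcna5 and 165 of Kcna6. The Kv beta genes had 248 CPM for Kcnab1, 542 for Kcnab2 and 89.7 for Kcnab3. Kcna4, with 317 counts, had at most 5.87 CPM elsewhere in that model. The same library had 93.7 CPM summed over 11 SHH and granule progenitor markers, against 3140 to 6694 CPM in the labelled tumours, and 52.3 CPM over 12 cell cycle genes. Its oligodendrocyte markers summed to 6375 CPM. It goes against its tumour label in these markers, and what it holds was not tested.

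Single tumours stood far from the others of the WT group for 4 of the 9 members. WT replicate 4 had 48.6 CPM of Kcna1, 65.0 of Kcnab2 and 7.07 of Kcnab3, and WT replicate 7 had 2.51 CPM of Kcna4. The rule, a gap set against the range, marks about 1 in 20 groups of normally distributed values. It was applied to CPM without a log, and the 9 members were read in the same tumours, so its rate here is not known. WT replicate 4 accounts for 3 of the 4. Its oligodendrocyte markers summed to 3200 CPM, the highest of the WT tumours.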

How the results depend on the processing

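No paired analysis was possible because the replicate numbers were given in accession order and pair no tumours. The titles put 3 TAM+ and 2 TAM- tumours on 2 dates found in both groups. A fit of these 5 with the date as a block, added after the data had been seen, called 7 genes, no member and no partner, with -0.37 for Kcna1, -0.59 for Kcnab1 and 0.74 for Kcna6. No member passed edgeR's test between KO and WT tumours under any of the 9 other settings or any of the 10 fits with a tumour left out, and no gene did except 8 with DESeq2. Leaving out each tumour gave 0 to 0 genes and 0 to 0 members and partners, which says nothing of stability: counts at an unadjusted p under 0.05 ran from 280 higher and 203 lower to 1659 and 1551, with 0 to 7 members. The estimate of Kcna3 turned positive without the library labelled wild-type replicate 3 (0.086), with it as a KO (0.25) and without WT replicate 2 (0.15), in a range of -0.62 to 0.15 with a tumour left out. Kcna5 turned positive with sex in the fit (0.31), without WT replicate 1 (0.87) and without KO replicate 3 (0.18), in a range of -0.54 to 0.87.

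Between TAM+ and TAM- tumours 501 genes were called, 0 within earlier-dated and 2 within later-dated titles, 6 with the oligodendrocyte score, 21 with the granule neuron score and 769 with DESeq2. With a tumour left out the count ran from 138, without TAM+ replicate 14, to 783, without TAM- replicate 11. It was also lower by over 1.5 times without TAM+ replicates 17 (259), 19 (287) and 20 (314). The 1 member called, Kcna6, became 0 within either period and with either score, and 2 without the count filter. Leaving out each tumour gave 0 to 2 members. The single partner gene called became 4 with the title period in the fit, 2 with DESeq2 and 0 within either period and with either score, and 1 to 5 with a tumour left out. With the oligodendrocyte score the estimates turned to -0.70 for Kcna1, -0.71 for Kcna2, -0.031 for Kcna6, -0.55 for Kcnab1, -0.15 for Kcnab2 and -0.40 for Kcnab3. With the granule neuron score those of Kcna1, Kcna2, Kcnab1, Kcnab2 and Kcnab3 were -0.17, -0.16, -0.077, -0.0093 and -0.057. The cause of these shifts was not tested. In the 10 earlier-dated TAM- tumours the cell cycle correlations were 0.0971 for Kcna2 and 0.0357 for Kcnab2, while those over all 30 were negative. The sign of values this small cannot be read from 10 tumours. At 5869618 to 8667344 counts per library, Kcna3, Kcna4 and Kcna5 rest on medians of 2 to 6 counts.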
